A study of Sus scrofa with 4 samples.

Results

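The 42 genes described here encode the actin filament machinery and the proteins that tie it to focal adhesions and the membrane. They were chosen by symbol from the 16192 protein-coding genes listed in the deposited data, and all 42 were found. Subcutaneous preadipocytes of 3 male Chinese Erhualian piglets, 5 days old, were grown to confluence and differentiated in culture. Expression was measured on days 0, 2, 4 and 8 of differentiation (D0 to D8), with 1 library per stage made from the pooled RNA of the 3 piglets. D0 cells were confluent and had not yet received the hormones. D2 cells had been under dexamethasone, 3-isobutyl-1-methylxanthine and insulin since D0. D4 cells had then had insulin alone, and D8 cells had afterwards been in growth medium without added hormones. All stages were therefore primary cultures of the same animals, and no untreated culture of the later days was analysed here. With 1 library per stage, a difference between stages cannot be told apart from one between libraries, and no test was possible.

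Actin monomers assemble into polar filaments that grow mainly at the barbed end and are taken apart at the pointed end. The Arp2/3 complex starts new filaments as branches on old ones, formins and Ena/VASP proteins lengthen them, capping protein stops them, and cofilin with its partners returns monomers to the pool. Tropomyosins and crosslinkers turn filaments into stress fibres, whose ends are held by focal adhesions through talin and vinculin. Preadipocytes are spread, fibroblast-shaped cells, and the loss of stress fibres as they round up is a well-known step of adipogenesis.

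Expression is given as FPKM, which divides the fragments of a gene by its transcript length and by the fragments of the library, a scale on which genes can be compared per length. Between 54128151 (D8) and 75387428 (D0) fragments lay behind the FPKM values of a library. A member gene held 200 to 456718 reads in a library, and the 95% intervals below come from those read numbers. They cover counting error only, not the spread between cultures or animals, which these pooled libraries do not measure. A gene was taken as reliably expressed at an FPKM of at least 1 in at least 3 libraries, which all 42 members and 9191 mRNAs in all met. Ratios are on log2(FPKM + 0.01), and a gene is counted as lower or higher at a ratio of at least 2-fold. These counts are descriptions of 4 libraries, since the data allow no test.

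The actin machinery was lower as a group at D2 and D4 than at D0, and part of the way back at D8. Its summed FPKM was 9290, 3122, 3112 and 6285 in the order of the stages, or 2.26%, 0.821%, 0.780% and 1.52% of the FPKM of all protein-coding genes. Of the 42 members, 38 had their highest value at D0, against 36.5% of all reliably expressed mRNAs. The lowest value was at D2 for 26 members, at D4 for 15 and at D8 for 1, ENAH. The stage of the lowest value was not counted over all mRNAs, so that these counts have no background to set beside them. The order D0, D8, D4, D2 from high to low held for 22 members, and the order D0, D8, D2, D4 for 12. Among all reliably expressed mRNAs these orders held for 10.1% and 9.24%.

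**Figure D1:**
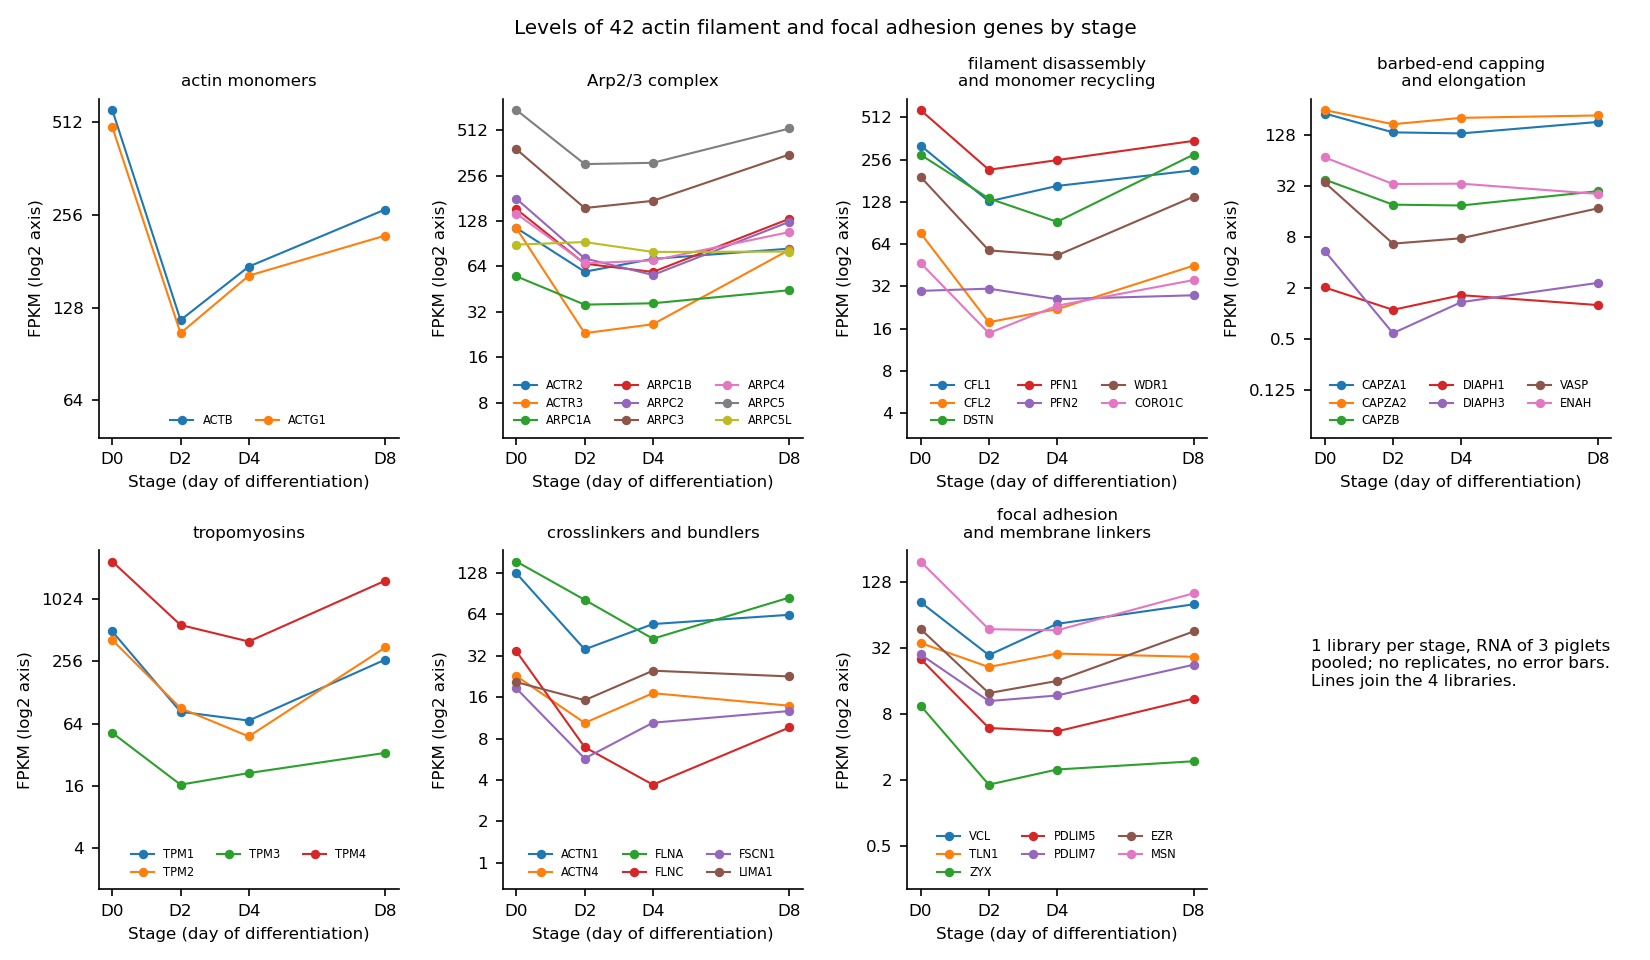
FPKM (log2 axis) of the 42 members at D0, D2, D4 and D8, 1 panel per role and 1 line per gene; each point is 1 library, without replicates. Most lines are highest at D0 and lowest at D2 or D4, while ARPC5L and PFN2 run nearly level.

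Between D2 and D0, 31 of the 42 members were lower and 0 were higher. Of all reliably expressed mRNAs, 10.1% were lower and 6.67% higher by the same rule. The shares of all mRNAs given for each comparison are also those to set beside the counts by role and by list below. The median log2 ratio was -1.41 over the members and -0.03 over all reliably expressed mRNAs. Below 0 lay 40 members, beside 52.0% of all reliably expressed mRNAs. Between D4 and D2, 0 members were lower and 1, the formin DIAPH3, was higher, beside 0.838% and 4.24% of all mRNAs. The median was 0.18 over the members and 0.09 over all mRNAs. The median of the members was thus further from 0 in the first of these comparisons than in the second.

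Between D8 and D4, 14 members were higher and 0 lower, beside 4.43% and 10.1% of all mRNAs. The median was 0.62 over the members, whereas all mRNAs had a median of -0.21. Between D4 and D0, 29 members were lower and 0 higher, beside 8.81% and 10.4% of all mRNAs, with a median of -1.23 against 0.06. Between D8 and D0, 9 members were still lower and 0 higher, beside 3.68% and 3.60% of all mRNAs, with a median of -0.49 against -0.18. These comparisons share libraries, so that they do not support each other.

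**Figure D2:**
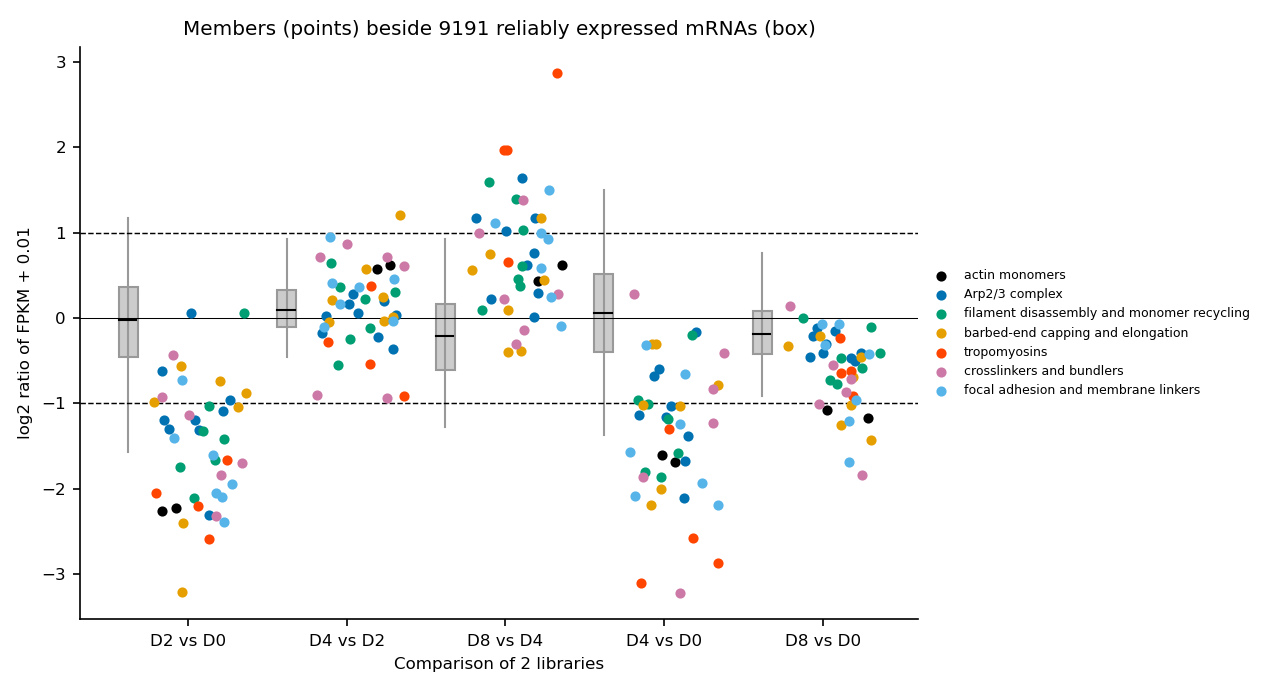
Log2 ratio of FPKM + 0.01 in the 5 comparisons of 2 libraries. Points are the 42 members coloured by role; the grey box spans percentiles 25 to 75 of 9191 reliably expressed mRNAs with the median as a line, the whisker spans percentiles 5 to 95, and dashed lines mark 2-fold. The members lie mostly below the box in D2 vs D0 and D4 vs D0, and mostly above it in D8 vs D4.

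Markers of some other cell states moved in the same direction as the actin genes, and those of others did not. Their part in these values was not tested. Smooth muscle and myofibroblast markers, themselves parts of the contractile apparatus, summed to 6393, 677, 530 and 5123 FPKM in the order of the stages. Of these 9 markers 8 were reliably expressed, and all 8 had lower values at D2 than at D0 by this rule, and 7 had higher values at D8 than at D4. The exception among the 9 was MYH11, the myosin of mature smooth muscle, which stayed under an FPKM of 1 in all 4 libraries. Of 12 skeletal myogenic markers 7 were listed. The muscle intermediate filament gene DES had 436, 37.7, 4.05 and 35.7 FPKM, while MYF6, MYOG, ACTC1, TNNT3 and CKM were near 0 and ACTA1 was under 1 FPKM throughout.

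Adipocyte markers summed to 122, 491, 1747 and 2076 FPKM in the order of the stages. All 7 reliably expressed ones were higher at D2 than at D0. Between D8 and D4 the sum was carried by FABP4 (853 and 1557 FPKM at D4 and D8), and 4 of the 7 were lower, PLIN1, PPARG, CEBPA and LIPE. The remaining marker, CIDEC, was not reliably expressed by the rule and went the other way. It had 0.271, 0.780, 5.01 and 54.6 FPKM, a log2 ratio of 3.44 between D8 and D4. Fibroblast or preadipocyte markers summed to 1130, 2272, 3034 and 2296 FPKM, of which COL3A1 alone had 491, 1286, 2058 and 1624. The others did not all follow, since THY1 had 105, 101, 88.0 and 78.8 FPKM and COL1A1 258, 283, 193 and 211. Between D8 and D0, 4 of these 7 markers lay below 0 and 3 above, with a median log2 ratio of -0.05. Of all reliably expressed mRNAs, 68.5% lay below 0 there. The sums of endothelial markers (1.38 to 2.65 FPKM) and of epithelial or mesothelial markers (3.58 to 4.89 FPKM) were low at every stage. Leukocyte markers summed to 3.00 to 7.94 FPKM, nearly all of it CD14, while the pan-leukocyte gene PTPRC was near 0. In pooled bulk RNA, fewer cells of a type and less RNA per cell cannot be told apart.

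The actin monomer genes were among the members furthest below D0. ACTB, which encodes beta-actin (chr3:4084275-4090383, minus strand, Sscrofa11.1), had 561, 117, 174 and 267 FPKM in the order of the stages. ACTG1, which encodes gamma-actin (chr12:1320355-1323219, plus strand), had 493, 106, 163 and 219 FPKM. Both were lowest at D2, and at D8 both were still under 50% of D0, at 47.6% for ACTB and 44.5% for ACTG1. For ACTB, the 2-fold difference between D8 and D0 is lost under median-of-ratios scaling, which leaves 6 of the 9 members lower in that comparison (ACTN1 and VASP are lost too). ACTB was 4.80-fold lower at D2 than at D0, a log2 ratio of -2.26 (95% interval -2.28 to -2.25). ACTG1 was 4.66-fold lower, a log2 ratio of -2.22 (-2.25 to -2.19). ACTB made up 53.2%, 52.4%, 51.7% and 54.9% of the pair, so that both genes kept nearly the same proportion. Reads of these near-identical coding sequences, and of the muscle actin ACTA2, can be split between the genes in counting, so that each single value is uncertain.

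The Arp2/3 complex is built of the actin-related proteins ACTR2 and ACTR3, which form the start of the branch, and of ARPC subunits that hold them on the mother filament. The study ran quantitative PCR of ARPC2 and ARPC3 on replicate RNA samples of each stage and reported trends similar to its sequencing. Those PCR values are not used here. The primer pairs are shown because they are the only member sequences in the sources used here:
ARPC2 forward: acacgtatgcgggcaaaaac
ARPC2 reverse: acgtcttccccgtgattgtt
ARPC3 forward: accccgacaccaaactcatt
ARPC3 reverse: ttctctaggggcaggtcctt
Each primer is 20 bases long and is written 5′ to 3′.

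Of the 9 Arp2/3 genes, 6 were lower at D2 than at D0, beside 10.1% of all mRNAs, with a median log2 ratio of -1.19. Between D8 and D4, 4 of the 9 were higher, beside 4.43% of all mRNAs. None of the 9 was 2-fold different between D8 and D0. With equal protein-coding sums, ARPC4 is no longer 2-fold lower at D2, nor ARPC3 2-fold higher at D8 than at D4. ARPC5 (chr9:124839062-124847906, minus strand), a subunit next to ARPC1 in the complex, had the highest level of the 9 in every library, with 695, 305, 311 and 525 FPKM at D0, D2, D4 and D8. ARPC5 was 2.28-fold lower at D2 than at D0, a log2 ratio of -1.19 (-1.23 to -1.15). ARPC3 had 382, 156, 174 and 353 FPKM. At D8 it stood at 92.3% of D0.

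The core subunits that bind the mother filament followed the same course at lower levels. ARPC2 had 179, 72.3, 56.2 and 126 FPKM, and ARPC4 had 143, 67.1, 70.1 and 108 FPKM. ARPC1B had 153, 66.7, 58.8 and 132 FPKM, with its low point at D4. Its paralog ARPC1A had 55.0, 35.7, 36.5 and 44.5 FPKM and was not 2-fold lower at any stage.

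The actin-related pair itself diverged. ACTR2 had 115, 59.0, 71.8 and 83.9 FPKM, and ACTR3 (chr15:20104808-20171721, plus strand) had 114, 23.1, 26.5 and 82.5 FPKM. The ratio of ACTR2 to ACTR3 was 1.01, 2.55, 2.71 and 1.02, so that the pair was level at both ends of the time course and unequal in between. ACTR3 had the lowest ratio of the 9 genes between D2 and D0, 4.95-fold lower with a log2 ratio of -2.31 (-2.33 to -2.28). Between D8 and D4 it was 3.11-fold higher, a log2 ratio of 1.64 (1.62 to 1.66).

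ARPC5L, the paralog of ARPC5 (chr1:265645800-265653513, plus strand), stayed level with 89.2, 92.8, 79.8 and 80.2 FPKM. Its log2 ratio between D2 and D0 was 0.06 (-0.02 to 0.13), an interval that includes 0. As ARPC5 was lower in between, ARPC5L made up 11.4%, 23.3%, 20.4% and 13.3% of the pair. ARPC1A made up 26.4%, 34.9%, 38.3% and 25.2% of its pair with ARPC1B. In both pairs the paralog with the lower level took its larger shares at D2 and D4.

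Genes of filament disassembly and monomer recycling were lower at D2 in 6 of 7 cases, with a median log2 ratio of -1.41, though DSTN (-1.03) is no longer 2-fold lower under either other scaling. PFN1, or profilin, which loads monomers for addition at barbed ends (chr12:51962642-51965570, plus strand), had the highest mean level with 577, 217, 254 and 349 FPKM. Its ratio between D2 and D0 was 2.66-fold lower, or -1.41 on the log2 scale (-1.44 to -1.38). PFN2, the paralog best known from neurons (chr13:90177534-90185978, minus strand), had 29.8, 30.9, 26.0 and 27.7 FPKM. Its log2 ratio between D2 and D0 was 0.05 (0.01 to 0.10), and all its values lay between 87.3% and 103.7% of D0. PFN2 therefore made up 4.90%, 12.5%, 9.28% and 7.36% of the profilin pair.

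Cofilins and destrin sever filaments and speed up the loss of monomers from pointed ends. CFL1, the cofilin of non-muscle cells, had 323, 129, 166 and 215 FPKM. CFL2, the form known from muscle (chr7:65090170-65094521, plus strand), had 76.8, 17.8, 22.1 and 45.0 FPKM and the lowest ratio of this group between D2 and D0. CFL2 was 4.31-fold lower, a log2 ratio of -2.11 (-2.16 to -2.05). DSTN, destrin, had 278, 136, 92.5 and 278 FPKM, with its low point at D4. At D8 it was back at 100.2% of D0.

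DSTN was the second most abundant of these 3 genes at D0 and D4 and the most abundant at D2 and D8. It made up 41.0%, 48.0%, 32.9% and 51.7% of the family, while CFL1 made up 47.7%, 45.7%, 59.2% and 40.0%. WDR1, a cofactor of cofilin, had 193, 57.9, 53.3 and 139 FPKM. CORO1C, a coronin that also acts beside cofilin and Arp2/3, had 47.1, 14.9, 23.3 and 35.5 FPKM. Both were over 3-fold lower at D2 than at D0 and stood at 72.2% (WDR1) and 75.5% (CORO1C) of D0 at D8.

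Capping and elongation genes moved apart. Capping protein is a dimer of an alpha subunit (CAPZA1 or CAPZA2) and the beta subunit CAPZB, and it blocks the barbed end. CAPZA2 (chr18:29316384-29365062, minus strand), the most abundant gene of this group, had 251, 170.5, 203 and 216 FPKM, and CAPZA1 had 228, 137, 133 and 181 FPKM. CAPZB had 37.8, 19.1, 18.7 and 27.6 FPKM. The alpha subunits were the less affected. CAPZA2 had the highest ratio of the group between D2 and D0, 1.47-fold lower with a log2 ratio of -0.56 (-0.59 to -0.52). The ratio of CAPZA2 to CAPZB was 6.63, 8.91, 10.8 and 7.84.

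The elongation factors were lower. VASP, which holds on to barbed ends and feeds them, had 35.0, 6.63, 7.67 and 17.3 FPKM, that is 19.0% of D0 at D2 and 49.4% at D8. ENAH, its relative (chr10:13439772-13609347, minus strand), had 69.2, 33.6, 33.9 and 25.6 FPKM. It was the only one of the 42 members that was lowest at D8. VASP made up 33.6%, 16.5%, 18.5% and 40.3% of the pair.

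The diaphanous formins build unbranched filaments. DIAPH3 (chr11:32492735-32994854, minus strand), which also acts in dividing cells, had 5.43, 0.581, 1.35 and 2.28 FPKM. DIAPH1 had 2.01, 1.10, 1.63 and 1.25 FPKM, so that DIAPH3 made up 72.9%, 34.6%, 45.3% and 64.6% of the pair. DIAPH3 was the member with the lowest ratio between D2 and D0, 9.21-fold lower with a log2 ratio of -3.20 (-3.44 to -3.02).

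DIAPH3 was 2.30-fold higher at D4 than at D2, a log2 ratio of 1.20 (0.99 to 1.45). It had the fewest reads of any member, 200 at D2, and its call between D4 and D2 is lost with a pseudocount of 1 in place of 0.01. Markers of the G2/M phase of the cell cycle moved with it. They summed to 164, 20.5, 77.6 and 110 FPKM at D0, D2, D4 and D8. Of these 14 markers 11 were reliably expressed, with all 11 lower at D2 than at D0, and all 11 higher at D4 than at D2. Their part in the values of DIAPH3 was not tested.

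Tropomyosins, which wind along filaments and set which proteins can bind, held the most FPKM of any role at D0 and D8, but less than the Arp2/3 complex at D2 and D4. Their sum was 3351, 768, 537 and 2205 FPKM, or 0.817%, 0.202%, 0.135% and 0.534% of the FPKM of all protein-coding genes. All 4 were lower at D2 and at D4 than at D0, and 3 were higher at D8 than at D4. TPM4 (chr2:61453721-61476781, minus strand) had 2385, 578, 399.6 and 1555 FPKM. It ranked 20th of all protein-coding genes at D0 and 148th at D4.

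TPM4 was 4.12-fold lower at D2 than at D0 (log2 -2.04, interval -2.06 to -2.03) and 3.89-fold higher at D8 than at D4 (log2 1.96, interval 1.95 to 1.97). TPM1 (chr1:108986981-109016090, minus strand) had 501, 83.2, 68.4 and 267 FPKM, and the lowest ratio of the 4 between D2 and D0, 6.01-fold lower with a log2 ratio of -2.59 (-2.61 to -2.57). TPM3 (chr4:95542329-95572946, plus strand) had 51.9, 16.3, 21.2 and 33.2 FPKM. It had the smallest swing, with a ratio between D2 and D0 of 3.18-fold lower (log2 -1.67, interval -1.71 to -1.63).

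TPM2, beta-tropomyosin, had 413, 90.2, 48.0 and 350.0 FPKM. Its value at D8 was 7.29-fold that at D4, a log2 ratio of 2.87, the largest of the 42 members in that comparison, and reached 84.7% of D0. TPM2 made up 12.3%, 11.7%, 8.93% and 15.9% of the tropomyosins. TPM4 held 70.5% to 75.3% of the family at every stage, so that the makeup changed little beside the change of the sum. The swing of the tropomyosins was in the same direction as that of the smooth muscle markers given above, and the part of those cells or of that programme was not tested.

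The crosslinkers tie filaments into bundles and nets. Of these 6 genes, 4 were lower at D2 than at D0, with a median log2 ratio of -1.41. ACTN1, the alpha-actinin of stress fibres, had 127, 35.7, 54.5 and 63.7 FPKM, and ACTN4 had 22.8, 10.4, 17.1 and 13.9 FPKM. Both were lowest at D2. FSCN1, fascin, which bundles filaments in cell protrusions, had 18.5, 5.72, 10.4 and 12.7 FPKM.

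Filamins link filaments at wide angles and bind integrins, and both filamins reached their low point later than the actinins. FLNA (chrX:124889934-124915000, plus strand), the most abundant gene of the group, had 155, 81.8, 42.6 and 85.0 FPKM. It was 1.90-fold lower at D2 than at D0 (log2 -0.93, interval -0.94 to -0.91) and 3.64-fold lower at D4 than at D0 (log2 -1.87, interval -1.88 to -1.85). FLNC, the filamin known from muscle (chr18:19759734-19787616, minus strand), had 34.5, 6.92, 3.69 and 9.63 FPKM. FLNC had the lowest ratio of the group between D2 and D0, 4.97-fold lower (log2 -2.31, interval -2.37 to -2.27). At D8 it stood at 27.9% of D0, the smallest percentage of the 42 members. FLNC made up 18.2% of the filamin pair at D0 and 7.80%, 7.97% and 10.2% at D2, D4 and D8.

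LIMA1, which stabilises bundles and slows Arp2/3 branching (chr5:16074436-16177122, minus strand), stood apart. It had 20.6, 15.2, 24.9 and 22.7 FPKM and was the only member above D0 at D4, at 121.1% of D0. Its log2 ratio was -0.44 (-0.50 to -0.38) between D2 and D0 and 0.28 (0.23 to 0.32) between D4 and D0. Neither reached 2-fold.

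Focal adhesion and membrane linkers were lower at D2 than at D0 in 6 of 7 cases, with a median log2 ratio of -1.94. TLN1, talin, which joins integrins to actin (chr1:236416041-236450978, minus strand), was the exception with 35.6, 21.5, 28.5 and 26.6 FPKM, a 1.66-fold lower value at D2 (log2 -0.73, interval -0.76 to -0.70). VCL, vinculin, which is recruited to stretched talin, had 83.8, 27.6, 53.1 and 80.0 FPKM. VCL was one of the members that came back early, at 63.4% of D0 at D4 and 95.5% at D8.

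ZYX, zyxin, a sensor of tension at adhesions and stress fibres (chr18:6861072-6870256, minus strand), behaved otherwise. It had 9.55, 1.82, 2.50 and 2.97 FPKM, and the lowest ratio of the group between D2 and D0, 5.23-fold lower with a log2 ratio of -2.39 (-2.59 to -2.20). At D8 it stood at 31.1% of D0. The PDZ-LIM proteins tether kinases and other partners to alpha-actinin or tropomyosin. PDLIM5 had 25.5, 5.98, 5.56 and 11.06 FPKM, and PDLIM7 had 27.9, 10.5, 11.8 and 22.5 FPKM. Near equal at D0, where PDLIM5 made up 47.7% of the pair, they were unequal afterwards, with 36.3%, 32.0% and 32.9% at D2, D4 and D8.

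Ezrin and moesin link actin to the plasma membrane. MSN, moesin (chrX:51844197-51967674, plus strand), had the highest level of the group at D0 with 196, 47.5, 46.4 and 101 FPKM, 4.14-fold lower at D2 than at D0 (log2 -2.05, interval -2.08 to -2.02). EZR, ezrin, had 47.7, 12.4, 16.0 and 45.3 FPKM. At D8, EZR was at 94.9% and MSN at 51.3% of D0, so that the share of EZR in the pair was 19.5% at D0 and 31.0% at D8.

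The return at D8 was unequal among the members. Relative to D0, the median level was 37.6%, 42.5% and 71.3% at D2, D4 and D8. At D8, 6 members were at 90% of D0 or more, namely LIMA1 (110.0%), DSTN (100.2%), VCL (95.5%), EZR (94.9%), PFN2 (93.0%) and ARPC3 (92.3%). Under median-of-ratios scaling of the libraries, ARPC3, ARPC5L, PFN2, VCL and EZR lay above D0 at D8 instead of below, and under equal protein-coding sums DSTN lay below instead of above. The 9 members under 50% were FLNC, ZYX, ENAH, DIAPH3, PDLIM5, ACTG1, ACTB, VASP and ACTN1. ACTN1 (49.95%) and VASP (49.4%) were just inside that limit, and MSN (51.3%) was just outside it. By role, the summed FPKM at D8 was lowest relative to D0 for the actin monomers (46.1%) and the crosslinkers (54.7%) and highest for the Arp2/3 complex (79.7%).

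**Figure D3:**
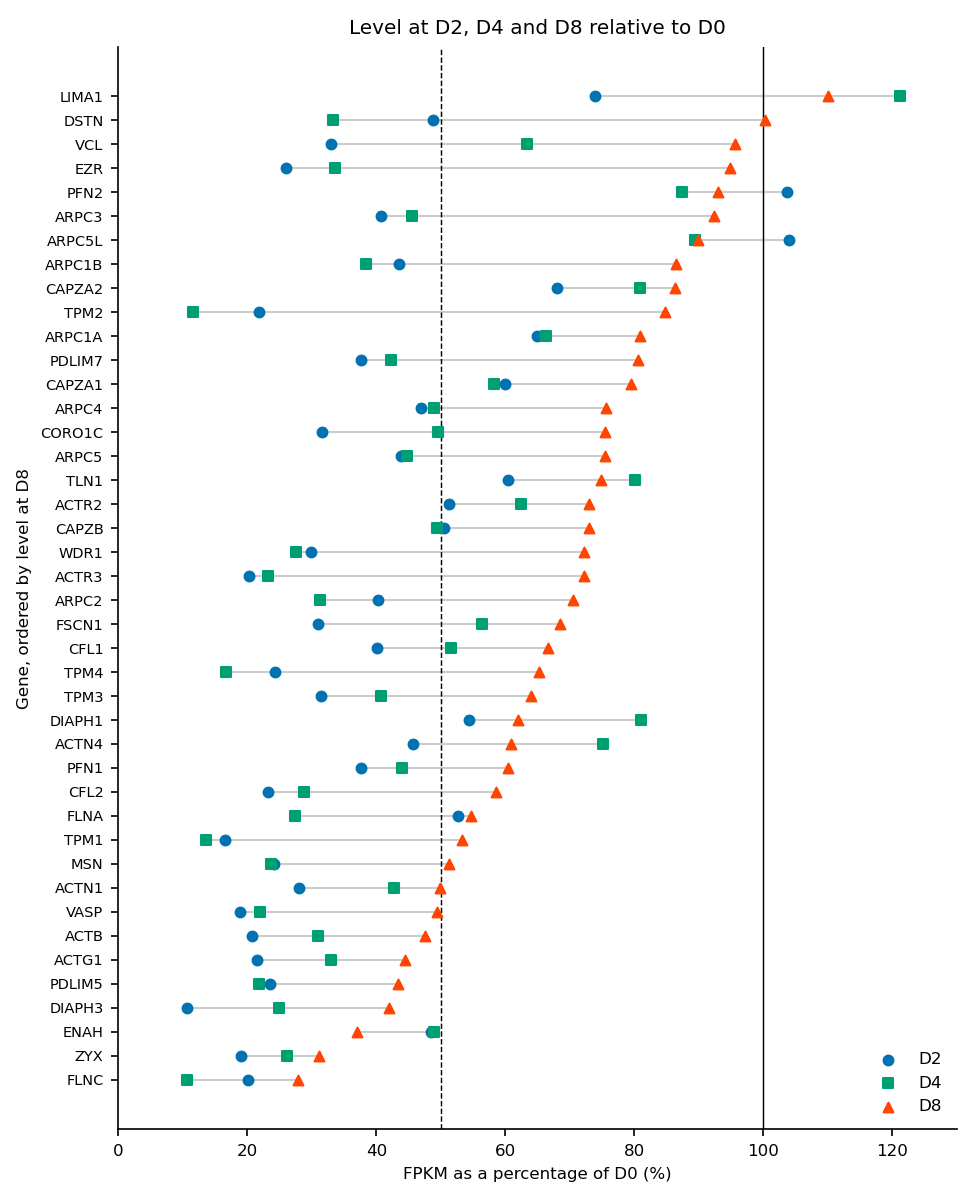
FPKM at D2 (circles), D4 (squares) and D8 (triangles) as a percentage of D0 for each of the 42 members, ordered by D8; the solid line is 100% and the dashed line 50%. The triangles run from 27.9% for FLNC to 110.0% for LIMA1, and those of TPM2, EZR, DSTN, ACTR3 and ARPC3 lie furthest to the right of their circles and squares.

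**Figure D4:**
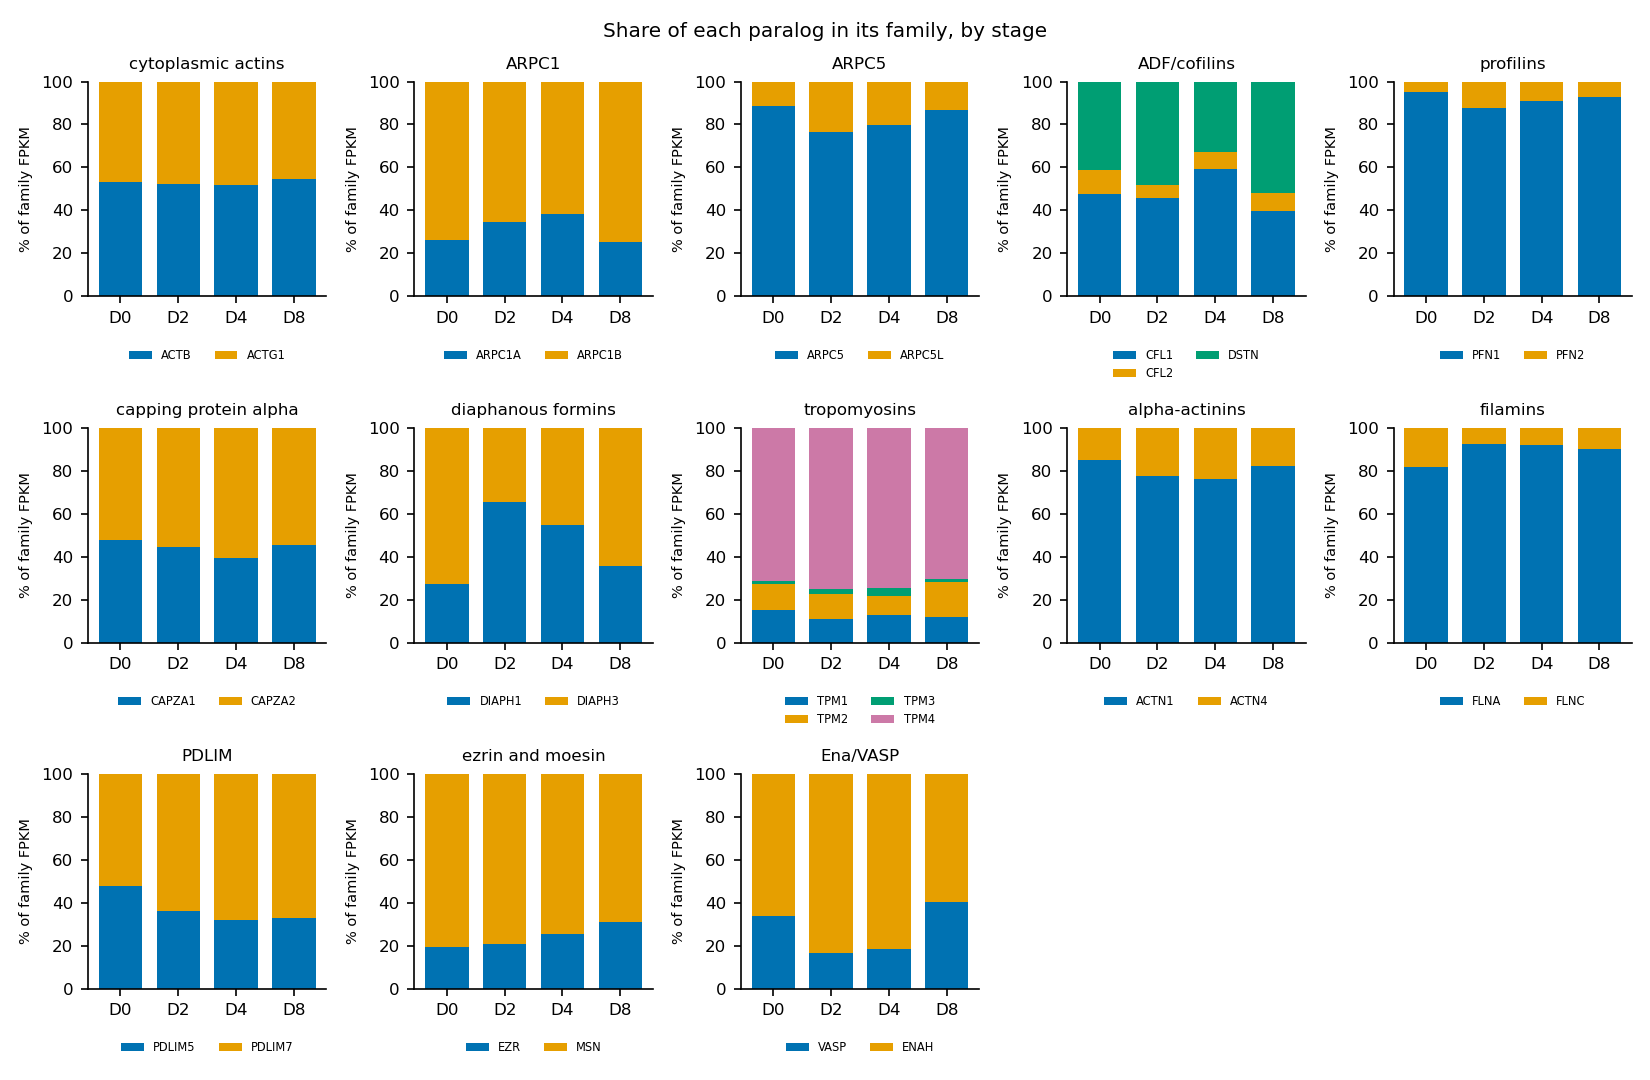
Share of each paralog in the summed FPKM of its family (%, stacked bars adding to 100%) at D0, D2, D4 and D8, in 13 families. In percentage points, the shares of DIAPH3, VASP, ARPC5L and PDLIM5 differ most between D2 and D0, while those of the cytoplasmic actins hardly differ.

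Some members lie next to each other on the genome. ARPC1A (chr3:6296257-6324526) and ARPC1B (chr3:6329737-6342641) are 5210 bases apart on the plus strand, and their ratio of ARPC1B to ARPC1A was 2.79, 1.87, 1.61 and 2.97 in the order of the stages. TPM2 (chr1:236402249-236410390) and TLN1 are 5650 bases apart on the minus strand. The ratio of TPM2 to TLN1 was 11.6, 4.20, 1.69 and 13.1, so that these neighbours did not move together. ACTB and FSCN1 are 43.8 kb apart on opposite strands of chromosome 3.

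Several members share bases with a gene on the other strand, and it is not given in the sources used here whether strand was used in counting. The kit marked the strand. PDAP1, opposite ARPC1B, had 43.4, 35.8, 40.1 and 30.0 FPKM, and CREB3, opposite TLN1, had 67.9, 53.0, 46.7 and 58.9 FPKM. TADA3, opposite ARPC4, had 12.5, 6.26, 6.43 and 11.07 FPKM, the same order of high and low stages as ARPC4 itself. RNF13, opposite PFN2, had 13.7, 12.7, 9.61 and 14.4 FPKM. The antisense transcript MSTRG.148136, opposite FLNC, had 0.123, 2.49 and 1.59 FPKM at D0, D2 and D4 and was listed at 0 at D8, high where FLNC was low. The other opposite partners, of CFL1, CAPZA1, VASP, FLNA, VCL and ZYX and a further one of FLNC, had at most 2.70 FPKM. The pseudogene LOC102165183 on the same strand within ENAH had 0.478 to 0.989 FPKM.

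Circular RNAs from the same genes gave a readout that the choice of genes did not use. They arise when a downstream splice site is joined back to an upstream one, and they were counted by reads across that junction. The files held 53 circRNAs with both ends inside 16 of the 42 member genes on the same strand. In all, 3320 genes hosted circRNAs, and the share of hosts among all expressed genes was not computed. Their junction reads numbered 806, 683, 551 and 446 at D0, D2, D4 and D8, or 1.51%, 1.55%, 1.08% and 1.19% of all junction reads in the library. A circRNA needed at least 2 junction reads to be listed.

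ENAH stood out among them. Its 10 circRNAs had 570 of the 806 member junction reads at D0, 552 of 683 at D2, 438 of 551 at D4 and 334 of 446 at D8. Among 3320 genes that host circRNAs, ENAH ranked 3rd, 2nd, 4th and 4th by junction reads. A single circRNA, ssc_circ_0004941 (chr10:13491755-13527498, minus strand), had 348, 328, 275 and 189 reads, and ssc_circ_0004943 (chr10:13516188-13527498) had 151, 142, 108 and 94 reads. These junctions together held 84.7% to 87.5% of the ENAH junction reads at each stage. They end at the same base, 13527498, which 4 of the 10 circRNAs share, and 4 start at 13491755.

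The circRNAs of ENAH and the gene's FPKM differed in course. ENAH circRNAs made up 1.07% of all junction reads at D0 (95% Wilson interval 0.987 to 1.16), 1.25% at D2 (1.16 to 1.36), 0.858% at D4 (0.781 to 0.941) and 0.891% at D8 (0.801 to 0.991). Between D2 and D0 the share was higher by 0.23 on the log2 scale (0.06 to 0.40), whereas the FPKM of ENAH was at -1.04. Between D4 and D2 the share was at -0.55 (-0.73 to -0.37) and the FPKM at 0.01. The share is relative to all junction reads and the FPKM to all fragments, so that these ratios are on unlike scales. Scaled by mapped reads, as SRPBM is, the difference of the circRNAs between D2 and D0 is smaller, and its interval was not computed. The junction shares of other members below have the same limit. The libraries kept linear and circular RNA, so that reads inside the circularised exons can also count towards the FPKM of ENAH.

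**Figure D5:**
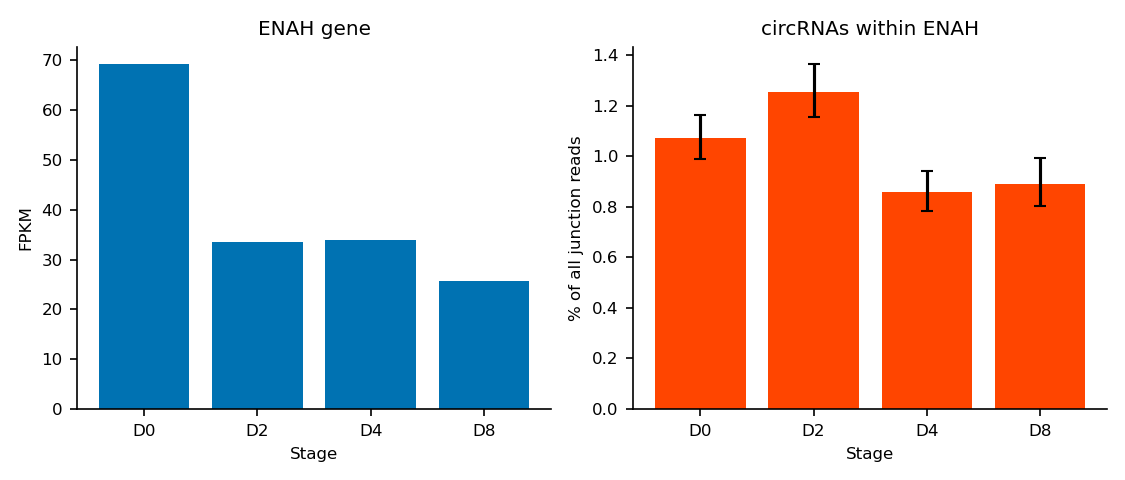
Left, FPKM of the gene ENAH at each stage; right, junction reads of its 10 circRNAs as a percentage of all junction reads in the library, with 95% Wilson intervals that cover counting error only. The FPKM at D2 is 48.5% of D0, while the share of junction reads is highest at D2, at 1.25%.

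The circRNAs of other members had few reads. VCL had 13 circRNAs with 74, 45, 33 and 27 junction reads in sum, PDLIM5 had 7 with 43, 21, 36 and 18, and DIAPH3 had 3 with 39, 31, 25 and 22. Those of DIAPH3 went different ways. Its ssc_circ_0005382 had 21, 23, 11 and 6 reads, ssc_circ_0005384 had 15, 0, 14 and 16, and ssc_circ_0005383 had 3, 8, 0 and 0. For DIAPH3 the log2 ratio of the summed junction share between D2 and D0 was -0.06 (-0.79 to 0.66). That interval does not reach the -3.20 of its FPKM. For PDLIM5 the log2 ratio of the summed share was -0.76 (-1.59 to 0.02), beside -2.09 for the FPKM. ARPC2 circRNAs had 26 reads at D0 and 2, 3 and 4 reads afterwards, a log2 ratio between D2 and D0 of -3.43 (-6.55 to -1.43), beside -1.31 for the FPKM. WDR1 circRNAs had 10, 8, 4 and 11 reads, and the circRNAs of each of the 10 remaining genes had 3 to 22 reads over the 4 libraries.

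Of 96 further genes of the actin pathway that are not members, 75 were reliably expressed. Between D2 and D0, 35 of the 75 were lower and 3 higher, with a median log2 ratio of -0.91, again beside 10.1% and 6.67% of all mRNAs. Between D8 and D4, 12 were higher and 4 lower, beside 4.43% and 10.1% of all mRNAs. The 3 genes higher at D2, named after their values were seen, were the nucleation promoting factor WHAMM (1.06, 2.32, 2.74 and 1.16 FPKM), the second talin TLN2 (2.47, 5.02, 6.17 and 2.48 FPKM) and supervillin, SVIL (1.66, 3.93, 3.17 and 1.34 FPKM). All 3 had low levels and were highest at D2 or D4, where TLN1 was below D0.

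Non-muscle myosin II is the motor that pulls on stress fibres. All 5 reliably expressed genes of its list were lower at D2 than at D0, namely the subunit genes MYH9, MYH10 and MYL6 and the regulators MYLK, a kinase, and PPP1R12A, a phosphatase subunit. The light chain gene MYL6 had 1112, 278, 235 and 744 FPKM, and the heavy chain gene MYH10 had 44.3, 18.8, 24.8 and 27.4 FPKM. Monomer binding, severing and bundling genes were lower at D2 in 11 of 21 cases and higher in 1, beside 10.1% and 6.67% of all mRNAs. TMSB4X, thymosin beta-4, which holds monomers in reserve, had 4435, 807, 687 and 2303 FPKM, whereas the spectrin gene SPTBN1 had 21.0, 21.7, 27.5 and 16.8 FPKM.

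Of 17 other focal adhesion genes, 8 were lower at D2 and 1 higher, beside 10.1% and 6.67% of all mRNAs. The adaptor TGFB1I1, also called Hic-5, had 14.7, 1.14, 1.35 and 8.62 FPKM, and KANK2, which binds talin at the adhesion rim, had 14.5, 13.2, 17.3 and 9.79 FPKM.

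Upstream nucleation factors had the median nearest to 0 among these lists. Of 15 nucleation promoting factors and formins, 3 were lower at D2 and 1 higher, beside 10.1% and 6.67% of all mRNAs. The median log2 ratio of these 15 was -0.27. NCKAP1, a subunit of the WAVE complex that turns on Arp2/3, had 40.8, 20.2, 21.2 and 32.3 FPKM. CTTN, cortactin, which steadies branches, had 62.5, 52.0, 55.1 and 46.9 FPKM. SRF is the transcription factor that reads the actin monomer pool through its cofactors. Both reliably expressed genes of the list around it were lower at D2, beside 10.1% of all mRNAs. For SRF the log2 ratio between D2 and D0 was -1.01, just past 2-fold. The other scalings raise all ratios of that comparison by 0.04 and 0.11. The cofactor genes MKL1 and MKL2 stayed under an FPKM of 1 at every stage. SRF itself had 7.86, 3.90, 6.20 and 5.07 FPKM, and FHL2, a LIM protein that binds SRF, had 11.5, 1.44, 1.51 and 4.98 FPKM.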

How the data were processed

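Total RNA was depleted of ribosomal RNA, and 1 strand-specific library per stage was sequenced. The authors aligned reads with HISAT2 (2.0.5) to Sus scrofa 11.1 and deposited FPKM for genes, and SRPBM (junction reads scaled by all mapped reads) from BWA-MEM and CIRI for circRNAs. The counting tool is not given in the sources used here. Members and gene lists were chosen with earlier results of these data known. From the deposited FPKM, library fragments were computed from tRNA rows, and reads as the smallest whole numbers at a length of at least 200 bases, a lower bound that cannot make intervals too narrow; the method was tested on simulated data. SRPBM values were whole junction reads in 100% of cases. Ratio intervals are exact binomial (Clopper-Pearson). Ratios with intervals were printed, per role, for the gene with the highest mean and the lowest and highest log2 ratio D2 vs D0, and also for some genes with a contrasting course, chosen after their values were seen. In each other pathway list, genes with the lowest and highest log2 ratio D4 vs D0 at an FPKM of at least 10 were named. All 42 members matched RefSeq annotation of the same build by symbol, start and end. Promoter motifs were not analysed here, and the results of one pathway list are not reported here. Python 3.11.15, pandas 2.3.3, numpy 2.4.6 and scipy 1.17.1 were used. Alternatives were pseudocounts of 0.1 and 1, no filter or an FPKM of 10, and 2 scalings.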

Additional observations from a re-analysis of the deposited data

How the results depend on the processing

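Of 90 recomputed counts and medians, 82 kept within 1.5 times the count or 0.1 (log2) of the median, and no median changed sign. Many of these 82 had little or no room to move. All 42 members met the main filter, so that dropping it could change no value, and several counts were 0 in every setting. A count of 6 in place of 9 between D8 and D0 also passed as kept. Scaling by median-of-ratios, which moved all genes by 0.21 between D8 and D4 and by 0.16 between D8 and D0, gave member medians of 0.83 and -0.33 in these comparisons. It also gave 2 members lower between D4 and D2 (FLNA and TPM2) beside the 1 higher, so that the balance of these few calls turned. Scaling to equal protein-coding sums, which moved all genes by 0.11 between D2 and D0, gave a median of -1.30 there, and 1 member lower between D4 and D2 (FLNA). A pseudocount of 1 and a filter at an FPKM of 10 each left 0 members higher between D4 and D2, since DIAPH3 has low FPKM. That filter keeps 36 members and left 4 lower between D8 and D0, where median-of-ratios scaling (without ACTB, ACTN1 and VASP) and a pseudocount of 1 (without ACTN1, DIAPH3 and VASP) each left 6. Between D2 and D0, the calls of ARPC4, DSTN and ENAH were lost with equal protein-coding sums, and that of DSTN with median-of-ratios. Between D8 and D4, those of ARPC3 and CFL2 were lost with equal protein-coding sums. Between D4 and D0, those of ARPC4, CAPZB, CORO1C and ENAH were lost with equal protein-coding sums, which left 25 members lower. There a pseudocount of 1 lost CAPZB and CORO1C, and median-of-ratios scaling added CFL1. Under both scalings ARPC1A, ARPC4, ARPC5 and ENAH changed sign between D4 and D2. LIMA1 and TLN1 under the first scaling and ARPC5L under the second changed sign between D8 and D4. No member changed sign between D2 and D0 or between D4 and D0. The promoter motif count was not run. No paired analysis was possible because each stage has 1 library, and no library could be left out for the same reason. Depth limits the circRNAs outside ENAH and the members with the fewest reads at D2, DIAPH3 (200), ZYX (248) and DIAPH1 (322). The counting interval crosses 2-fold for DIAPH1 and CAPZB between D2 and D0 and for FLNA and PDLIM5 between D8 and D4, none of them called there. It also crosses 2-fold for some members that were called. These were DIAPH3 between D4 and D2, and ARPC3 and CFL2 between D8 and D4. Against D0, they were ARPC4, CAPZB and CORO1C at D4, and ACTN1 and VASP at D8. The missing replicates limit every value.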
